A study of Mus musculus with 69 samples.

Results

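The genes described here are 10 genes grouped as responsive to glucocorticoid hormones and fasting: Fkbp5, Tsc22d3, Zbtb16, Sgk1, Klf9, Ddit4, Angptl4, Pdk4, Lcn12 and Errfi1. They were chosen by name, and their probes were found on the arrays by matching the accession that the scanner files give for each probe to RefSeq symbols. The match found 13 of the 41174 probes, and these stand for 9 of the 10 genes. Klf9 and Tsc22d3 have 2 probes each, Fkbp5 has 3, and the other 6 genes have 1. Zbtb16, a zinc finger transcription factor, matched no probe by this rule and was not analysed here.

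Gene expression was measured in whole lung of female C57BL/6 mice after a single instillation of nanosized titanium dioxide into the trachea. The 2 materials carried the names NRCWE-025 and NRCWE-030. Each was given at 18, 54 or 162 µg per mouse, in water with 2% serum, and control mice received the vehicle alone. Lungs were taken 24 h after exposure (day 1) or 28 days after it (day 28), which gives 14 groups of 5 mice each, except that 4 arrays were available for NRCWE-025 at 162 µg on day 28. The mice were 5 to 7 weeks old on arrival and were acclimatised for 1 to 3 weeks, under a cycle of 12 h light and 12 h dark. All of them, the controls included, went through the instillation procedure, so no group shows lungs left without it. The vehicle mice of a day served as controls for both materials, and comparisons of the 2 materials with vehicle therefore share those 5 arrays.

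Each of the 69 arrays compared the lung RNA of 1 mouse, labelled with Cy5, with a common mouse reference RNA labelled with Cy3. Values are log2 ratios of lung over reference, so 0 is the level of the reference and 1 is a doubling of it. Because probes differ in their reference level, a ratio can be compared between arrays for 1 gene, not between genes. In RNA from whole lung, fewer cells of a type and less RNA per cell cannot be told apart. Beyond separate mice, nothing in the labels ties arrays of a group to a cage or litter, and the p-values measure the spread between these mice and arrays.

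Glucocorticoids, which in mice means mainly corticosterone from the adrenal gland, enter cells and bind the glucocorticoid receptor, which then moves to the nucleus and binds DNA near its target genes. Corticosterone follows a daily rhythm and rises with stress and food deprivation, so its target genes vary with the hour, handling and feeding of an animal. In fasting, falling insulin also frees FOXO factors to enter the nucleus, and fatty acids activate PPAR receptors, which switch fuel use from glucose to fat. The lung is a classic target of the hormone, which promotes maturation of the alveoli before birth and dampens inflammation afterwards.

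The genes fall into several roles. Fkbp5 encodes a co-chaperone of the receptor that lowers its affinity for hormone, a short feedback loop. Tsc22d3 encodes GILZ, a leucine zipper protein that carries part of the anti-inflammatory action of the hormone, and Klf9 encodes a Krüppel-like transcription factor. Sgk1 is a kinase that regulates ion channels, Errfi1 is a feedback inhibitor of the epidermal growth factor receptor, and Ddit4 inhibits the growth kinase complex mTORC1. Angptl4 is a secreted inhibitor of lipoprotein lipase, and Pdk4 is a kinase that shuts off pyruvate dehydrogenase and so spares glucose. Lcn12 belongs to the lipocalins, small carriers of lipophilic molecules.

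Start regions from RefSeq (GRCm38.p6, 250 bases before to 50 after each annotated start) were at hand for 8 of these genes in 16 windows, and none for Zbtb16 and Angptl4. The stretches below are shown because they hold the letters of a hormone, fasting or clock element in 3 genes that the results return to. In each, the capitals mark the element found, the letters run 5′ to 3′ on the strand of the gene, and the stretch is 150 bases long.
Sgk1, chr10:21993640-21993789, plus strand, a pair of facing glucocorticoid receptor elements: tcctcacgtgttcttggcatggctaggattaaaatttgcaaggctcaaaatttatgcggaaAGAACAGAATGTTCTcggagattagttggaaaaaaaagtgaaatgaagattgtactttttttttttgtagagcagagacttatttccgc
Klf9, chr19:23141076-23141225, plus strand, a FOXO element: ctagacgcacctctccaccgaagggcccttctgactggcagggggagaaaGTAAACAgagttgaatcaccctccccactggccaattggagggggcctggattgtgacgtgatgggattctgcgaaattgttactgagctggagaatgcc
Fkbp5, chr17:28486220-28486369, minus strand, an E-box, the element bound by the clock factors CLOCK and BMAL1: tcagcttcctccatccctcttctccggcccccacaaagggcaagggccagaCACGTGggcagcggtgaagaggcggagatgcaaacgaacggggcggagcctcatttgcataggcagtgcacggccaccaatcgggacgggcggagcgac

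Each motif was searched as fixed letters on both strands of all 32851 windows. The paired receptor element (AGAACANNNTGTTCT or AGAACANNNTGTTCC) was found in 0.033% of the windows, and among these genes in 1 window of Sgk1, starting 189 bases before the start. Its single element, AGAACA, which overlaps the pair, was found in 18.974% of the windows and in Tsc22d3, Sgk1 and Lcn12. The FOXO element GTAAACA lay in 3.65% of the windows and in Klf9, 100 bases before the start. The E-box CACGTG lay in 7.15% of the windows and in Fkbp5 and Sgk1. The core of the cyclic AMP element, TGACG, lay in 20.812% of the windows and in Tsc22d3, Sgk1, Klf9 and Errfi1, and the TATA box TATAAA in 13.616% of the windows and in Sgk1 and Errfi1. The PPAR/RXR direct repeat (0.04% of the windows) and the D-box TTATGNAA (3.385%) were in no window of these genes. Such matches are descriptions of the letters in these windows and are not binding data.

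The arrays measured most of these genes well. All probes of Tsc22d3, Klf9, Sgk1, Ddit4, Angptl4, Pdk4 and Errfi1 and 1 probe of Fkbp5, 10 probes in all, were well above background on all 69 arrays. The other 3 were the dim probes A_51_P383689 (56 of 69 arrays) and A_52_P337899 (45 of 69 arrays) of Fkbp5 and the Lcn12 probe A_51_P193640 (10 of 69 arrays). Over all probes, between 48.2% and 72.2% were well above background on an array, with a median of 61.4%. The arrays lay on 19 slides. Markers of alveolar type 2 and type 1 cells, club cells, ciliated cells, endothelium, macrophages and neutrophils were well above background on every array, except Tek, an endothelial receptor, on 68 of 69. Markers of heart muscle, skeletal muscle and fat varied between lungs, and many were dim. Of these, 5 of 7 heart muscle, 0 of 5 skeletal muscle and 2 of 6 fat markers were well above background on every array. The mean log2 ratio of 7 heart muscle markers ranged from 0.79 to 4.53 among the 5 vehicle lungs of day 1 alone.

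**Figure D1:**
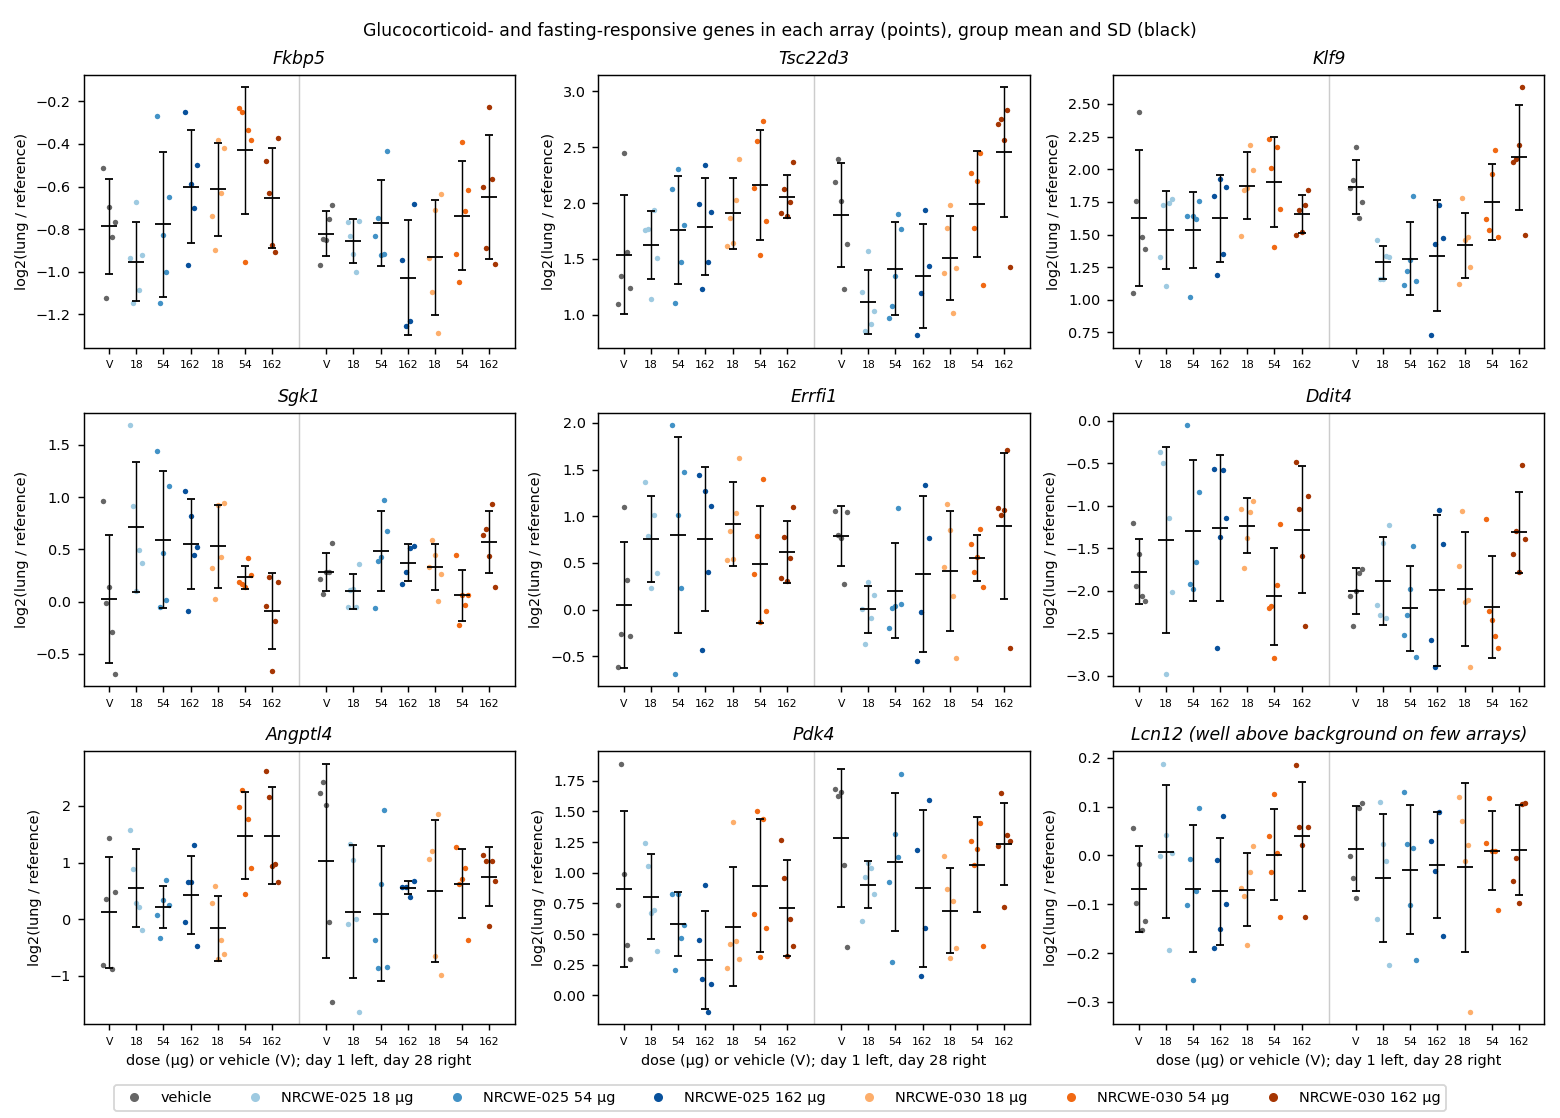
Log2 ratio of lung over reference RNA (vertical axes) of the 9 measured genes in the 14 groups (horizontal axis: vehicle and 18, 54 and 162 µg of each material, day 1 and day 28). Points are single mice and bars are mean ± SD. Angptl4, Ddit4 and Errfi1 spread widely within groups, Lcn12 stays close to 0, and Tsc22d3 and Klf9 are highest in the NRCWE-030 162 µg group of day 28.

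Most of these genes differed strongly between mice treated alike. The pooled SD within groups was 0.92 for Angptl4, 0.66 for Ddit4 and 0.61 for Errfi1 on the log2 scale, above that of 99.7%, 99.3% and 99.1% of the 18656 genes tested. It was 0.45 for Pdk4 (percentile 97.1), 0.43 for Tsc22d3 (96.4), 0.39 for Sgk1 (94.9) and 0.31 for Klf9 (88.6). The gene-level Fkbp5 value was steadier, at 0.24 (75.3). Over all genes the median within-group SD was 0.17. Lcn12, at an SD of 0.11, was among the steadier genes (percentile 9.4), but it was also near background. Angptl4 in the vehicle mice of day 28 gives the widest example: the log2 ratios were 2.24, 2.43, 2.01, -0.06 and -1.47 in the 5 mice. Of these controls, 3 were high and 2 low. Differences between the 14 groups accounted for 22.4% (Errfi1) to 52.8% (Fkbp5) of the total sum of squares of the 8 genes other than Lcn12, taking the brightest probe of each. Of the squares left within groups, 32.0% (Tsc22d3) to 66.9% (Sgk1) lay between slides. Fitting 14 groups or 19 slides takes up part of the squares by chance alone. That part was not worked out, and whether any of these shares exceeds it was not tested. The lowest shares, 22.4% for groups and 32.0% for slides, thus cannot be read as group or slide differences.

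At the gene level, where the value of a gene is the median of its probes, none of the 9 genes passed an adjusted p of 0.05 in any of 21 comparisons by limma. Of the 189 gene and comparison pairs, 33 had an unadjusted p under 0.05. Of all 18656 genes, 956 (18 µg of NRCWE-025 on day 1) to 2402 (162 µg of NRCWE-030 on day 1) had one in a comparison. Of the 9 genes, 0 to 4 did, and whether their share differs from that of all genes was not tested. Calls were few over all genes too. The F-test over the 3 doses called 0.0214% of genes for NRCWE-025 and 0.954% for NRCWE-030 on day 1, and 0.0268% and 0.102% on day 28. Against vehicle on day 1, NRCWE-025 called 0%, 0% and 0.209% of genes at 18, 54 and 162 µg, where NRCWE-030 called 0.00536%, 0.0804% and 1.69%. On day 28, NRCWE-025 called 0.059%, 0.0268% and 0.0161% at these doses, where NRCWE-030 called 0.118%, 0.0536% and 0.0965%. The F-test of the difference between materials called 0.155% on day 1 and 0.241% on day 28. The day difference of the dose effect at 162 µg called 0.059% for NRCWE-025 and 0.198% for NRCWE-030, and vehicle of day 28 against vehicle of day 1 called 0.0375%. With so few calls over all genes, 0 calls among 9 genes sets them neither above nor below the rest by that count. A call was also out of reach for modest changes: the 95% interval of a dose contrast reached at least 0.85 to either side for Angptl4, 0.63 for Ddit4 and 0.60 for Errfi1, but only 0.14 for Lcn12.

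**Figure D2:**
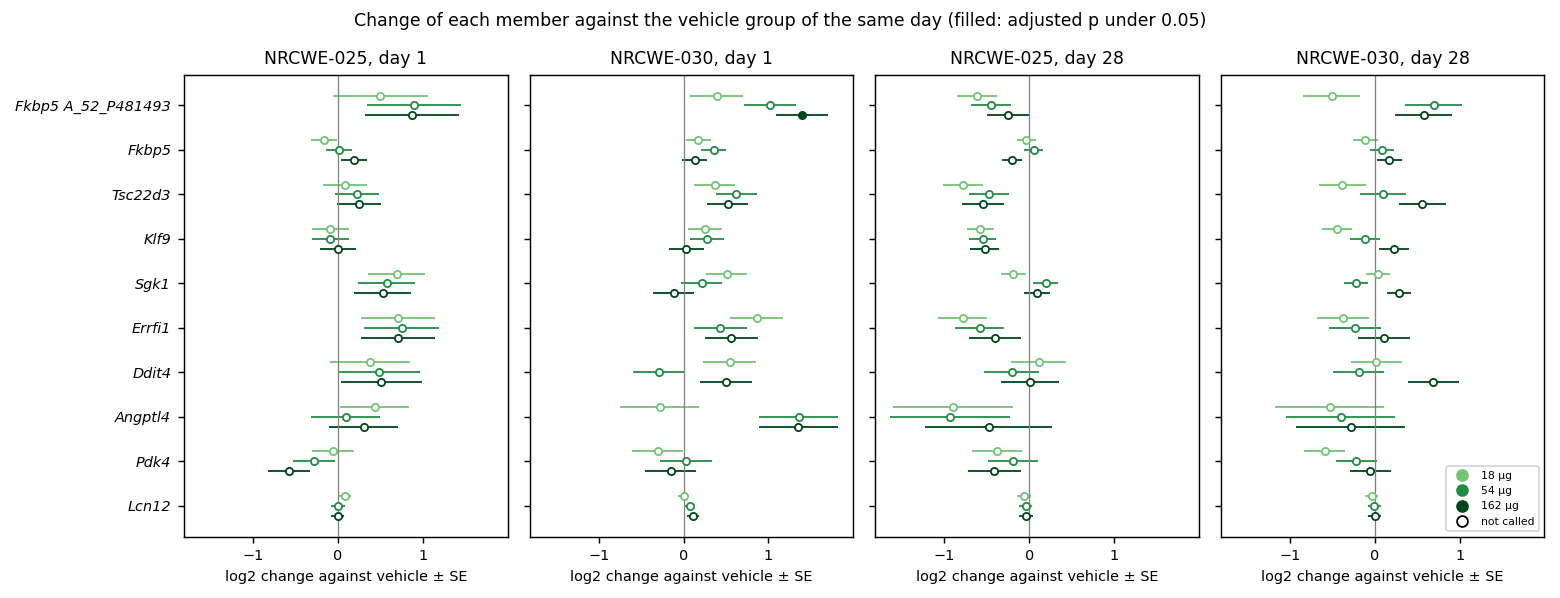
Log2 change against vehicle of the same day (horizontal axis) for the 9 genes and the bright Fkbp5 probe, by material, dose and day. Points are the fitted change, bars 1 SE, and a filled point is called at an adjusted p under 0.05. The bright Fkbp5 probe at 162 µg of NRCWE-030 on day 1 (1.40) is the one call.

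Fkbp5 was called through a single probe. Probe A_52_P481493, the one bright on all arrays, rose in lungs given 162 µg of NRCWE-030 on day 1. Its log2 ratios were 0.31, 0.11, 1.77, 0.00 and 0.09 in the 5 vehicle lungs of day 1 and 2.30, 1.57, 2.30, 1.37 and 1.72 in the 5 treated lungs. Vehicle replicate 3 lay within the treated range and the other 4 vehicle lungs lay below all treated ones. The log2 change was 1.40 ± 0.31 (SE, n = 5 and 5), a 2.63-fold rise with a 95% interval of 1.69 to 4.11, at an adjusted p of 0.033 in limma over 40831 probes, of which 0.862% were called. It was the one call among 273 probe and comparison pairs, 56 of which had an unadjusted p under 0.05. Of all 40831 probes, 1860 to 4422 had one in a comparison, where 0 to 6 of the 13 probes did.

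The lower doses lay in between. At 18 µg of NRCWE-030 the probe read 0.58, 0.43, 1.34, 0.81 and 1.05, and at 54 µg 1.37, 1.68, 0.80, 2.21 and 1.30. The mean was 0.46 ± 0.74 (SD) in vehicle, 0.84 ± 0.36 at 18 µg, 1.47 ± 0.52 at 54 µg and 1.85 ± 0.43 at 162 µg, each of 5 lungs. The means went up with dose, while neighbouring groups overlapped. The change of 1.02 ± 0.31 at 54 µg was not called (adjusted p = 0.33), nor was the F-test over doses (adjusted p = 0.094), where 0.517% of probes were called. Vehicle and treated lungs shared slides, and with slide as a random or a fixed block the F-test was called (adjusted p = 0.036 and 0.028), as was the 54 µg contrast with the fixed block. The 162 µg change was 1.45 and 1.84 in these fits (adjusted p = 0.016 and 0.019). Comparing lungs with the vehicle lung on the same slide, the 2 slides that held both gave differences of 2.21 and 2.29 at 162 µg, and 3 slides gave 1.21 to 1.68 at 54 µg.

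The call was sensitive to leaving out single lungs. It was lost in 8 of 20 fits that left out 1 lung: vehicle replicates 1, 2, 4 or 5 (adjusted p 0.075, 0.094, 0.096 and 0.077), or treated replicates 1, 2, 3 or 5 (0.086, 0.065, 0.087 and 0.066). Over these 20 fits the log2 change stayed between 1.28 and 1.73. Without vehicle replicate 3, the F-test and the 54 µg contrast were called as well.

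The other lungs show how far this probe moved without a call. For NRCWE-025 on day 1 it read 2.30, 1.86, 0.12, 0.59 and -0.10 at 18 µg, 2.95, 0.10, 0.96, 0.13 and 2.62 at 54 µg, and 2.24, 0.58, 1.35, 1.03 and 1.44 at 162 µg. Single lungs at 18 and 54 µg thus matched or exceeded the highest NRCWE-030 lungs while others stayed at vehicle level. On day 28 it read 0.76, 0.90, 0.79, -0.11 and -0.41 in vehicle lungs and -0.51, -0.18, 0.04, -0.13 and -0.37 at 18 µg of NRCWE-025. At 54 µg of NRCWE-030 on day 28 it read 1.37, 1.89, 0.88, 1.24 and 0.03, and at 162 µg 0.81, 1.53, 0.13, 1.89 and 0.46. Both dose groups overlapped vehicle, with changes of 0.70 ± 0.33 (adjusted p = 0.91) and 0.58 ± 0.33 (adjusted p = 0.82). The shares of probes called by the F-test were 0.00245% for NRCWE-025 on day 1, 0.0196% for NRCWE-025 on day 28 and 0.0588% for NRCWE-030 on day 28. The 162 µg difference between NRCWE-030 and NRCWE-025 on day 1 was not called for this probe either, with a ratio of 1.44 and a 95% interval of 0.815 to 2.54.

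**Figure D3:**
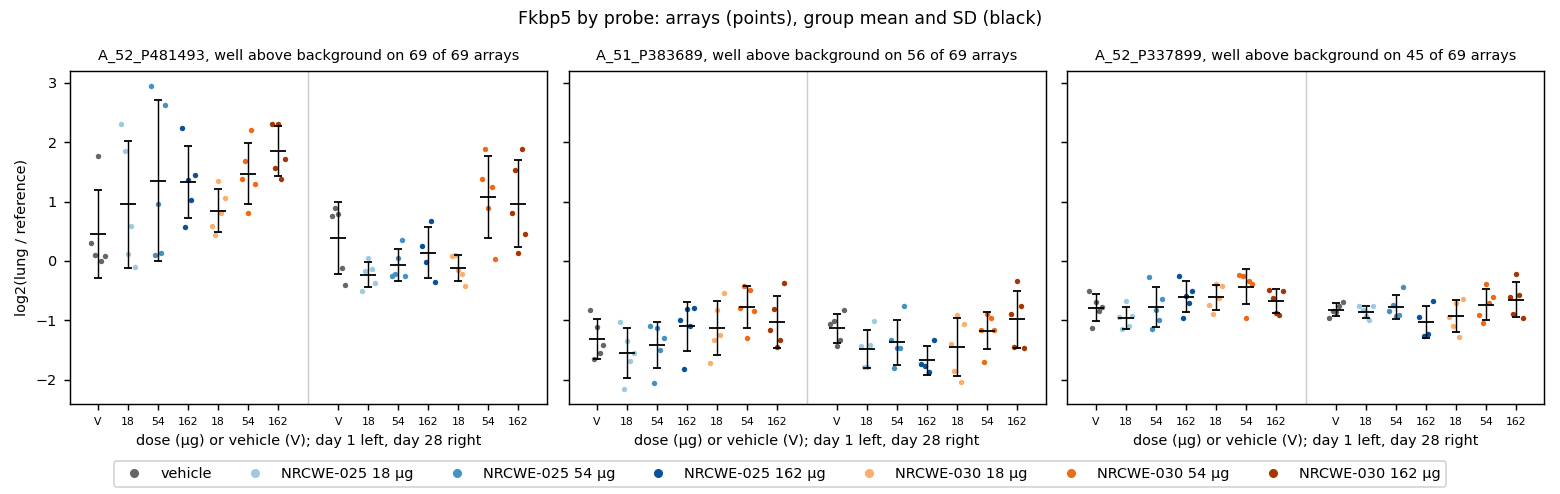
Log2 ratios of the 3 Fkbp5 probes (1 panel each) in the 14 groups, with points for single mice and bars for mean ± SD. The bright probe A_52_P481493 reaches 1.85 on average at 162 µg of NRCWE-030 on day 1, while the 2 dim probes stay below 0 in all groups.

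The Fkbp5 probes did not move together. Within groups, the dim probes correlated with each other (r = 0.78 over 69 arrays) but hardly with the bright one (r = 0.13 and 0.17). The gene-level value follows the dim pair: it was -0.79 ± 0.22 in vehicle lungs of day 1 and -0.65 ± 0.24 at 162 µg of NRCWE-030, and its highest group mean was -0.43 ± 0.30, at 54 µg. Gene-level values of Fkbp5 are therefore readings of dim probes, and Fkbp5 was called in the 162 µg NRCWE-030 group of day 1 once the brightest probe stood for the gene.

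Tsc22d3 was the gene nearest to a call at the gene level. On day 28 it read 2.19, 2.39, 2.02, 1.23 and 1.64 in vehicle lungs. After 162 µg of NRCWE-030 it read 2.70, 2.75, 2.56, 2.83 and 1.43, and after 162 µg of NRCWE-025 it read 0.82, 1.20, 1.93 and 1.44. Of the NRCWE-030 lungs, 4 lay above every vehicle lung and 1 did not. Of the NRCWE-025 lungs, 2 lay below the vehicle range and 2 within it. The difference between the materials was 1.11 ± 0.28 on the log2 scale, or 2.15-fold (95% interval 1.46 to 3.17), with an adjusted p of 0.25 for that contrast and 0.078 for the F-test over the doses. At 54 µg it was 0.57 ± 0.26 (adjusted p = 0.59). Against vehicle, the NRCWE-025 changes on day 28 were -0.78 ± 0.24 at 18 µg (adjusted p = 0.29) and -0.55 ± 0.25 at 162 µg (adjusted p = 0.68), neither called.

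The F-test of Tsc22d3 between materials on day 28 passed the threshold when the brightest probe stood for the gene (adjusted p = 0.041). It also passed without vehicle replicate 3 of day 1, NRCWE-025 162 µg replicate 3, NRCWE-030 162 µg replicate 5 or NRCWE-030 54 µg replicate 5 of day 28, with adjusted p ranging from 0.011 to 0.23 over the 69 fits that each left out 1 array. Both probes moved alike (r = 0.91 within groups). The relation did not hold on every slide: of the 2 slides that held lungs of both materials at 162 µg on day 28, 1 gave a difference of 1.72 (NRCWE-030 minus NRCWE-025, brightest probe) and the other -0.32. Each difference is 1 lung minus 1 lung. The -0.32 set the lowest NRCWE-030 lung (replicate 5, 2.04) against the highest NRCWE-025 lung (replicate 3, 2.36). These 2 lungs are among the 4 arrays named above. On day 1 the changes for NRCWE-030 were 0.62 ± 0.24 at 54 µg (adjusted p = 0.42) and 0.52 ± 0.24 at 162 µg (adjusted p = 0.36). Day 1 values ran from 1.1 to 2.45 in vehicle lungs and from 1.88 to 2.37 at 162 µg, so the ranges overlapped.

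Klf9 ran parallel to Tsc22d3 on day 28. It read 1.86, 1.92, 2.17, 1.62 and 1.75 in vehicle lungs, 1.46, 1.16, 1.16, 1.33 and 1.32 at 18 µg of NRCWE-025, and 2.06, 2.08, 2.19, 2.63 and 1.5 at 162 µg of NRCWE-030. All 5 lungs of the NRCWE-025 18 µg group lay below all 5 vehicle lungs. This was the one case of 108 gene and dose group pairs in which treated and vehicle lungs did not overlap, against 1.91% of all gene and group pairs in either direction and 1.22% of genes lying below vehicle in that group. The changes were -0.58 ± 0.16, -0.55 ± 0.16 and -0.52 ± 0.17 at 18, 54 and 162 µg of NRCWE-025, with adjusted p of 0.25, 0.43 and 0.48, and no call. These 3 contrasts subtract the same 5 vehicle lungs. Between materials at 162 µg the difference was 0.75 ± 0.21, or 1.68-fold (95% interval 1.27 to 2.24), with an adjusted p of 0.50 and 0.18 for the F-test. The F-test was called in 1 of the 69 fits that left out an array, the one without NRCWE-030 162 µg replicate 5. The 2 slides with both materials at this dose gave 1.39 and -0.06, the latter from the same 2 lungs as the Tsc22d3 difference of -0.32. Against the vehicle lung of the same slide, 18 µg of NRCWE-025 gave -0.42 and -0.33 on the 2 slides that held both. The 2 Klf9 probes correlated at only 0.30 within groups.

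Genes of the circadian clock also differed between the materials on day 28. Dbp, a clock-controlled factor, averaged 1.81 ± 0.23 at 162 µg of NRCWE-030, 0.06 ± 0.57 at 162 µg of NRCWE-025 and -0.46 ± 0.94 in vehicle. Per2, a clock repressor, averaged 0.99 ± 0.19, 0.05 ± 0.08 and 0.25 ± 0.16 in the same groups, and Per1, which glucocorticoids also induce, 0.88 ± 0.55, -0.20 ± 0.56 and 0.23 ± 0.64. Arntl, which encodes BMAL1, ran the other way at -0.92 ± 0.13, 0.41 ± 0.40 and 0.45 ± 0.19. At 54 µg of NRCWE-030 on day 28, Dbp averaged 1.66 ± 0.29 and Arntl -0.67 ± 0.27. Tsc22d3 averaged 1.99 in that group against 1.89 in vehicle, and Klf9 1.75 against 1.86. Of 18 clock genes, 8 were called between materials on day 28 and 3 on day 1, where 0.241% and 0.155% of all genes were called. The hour at which each lung was taken is not given in the sources used here, and the part of the daily clock in the Tsc22d3, Klf9 and Fkbp5 values was not tested.

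No dose of either material passed the test for Errfi1 or Sgk1. Errfi1 read -0.61, -0.26, 1.1, 0.32 and -0.28 in vehicle lungs of day 1 and 0.54, 0.84, 0.54, 1.04 and 1.62 at 18 µg of NRCWE-030, a difference of 0.86 ± 0.31 (adjusted p = 0.58). A single vehicle lung exceeded most treated lungs. On day 28 it read 1.06, 0.80, 0.77, 0.27 and 1.05 in vehicle and 0.01, -0.36, 0.30, -0.09 and 0.16 at 18 µg of NRCWE-025, a difference of -0.79 ± 0.29 (adjusted p = 0.42), with a single value of each group crossing over.

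Sgk1 differed most between materials at 162 µg on day 1. It read 1.06, -0.09, 0.82, 0.45 and 0.52 after NRCWE-025 and -0.04, 0.24, -0.67, -0.18 and 0.18 after NRCWE-030, while vehicle lungs read 0.96, -0.01, 0.14, -0.29 and -0.69. The difference of -0.65 ± 0.24 (NRCWE-030 minus NRCWE-025) had an adjusted p of 0.72. The vehicle lungs alone spanned nearly the whole range of both treated groups. Sgk1 was lower on arrays with more probes above background (r = -0.46 within groups), the strongest such relation among the 8 genes, followed by Angptl4 (0.42), and whether array quality has a part in its values was not tested.

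Ddit4 read -2.06, -2.42, -2.0, -1.79 and -1.74 in vehicle lungs of day 28 and -1.56, -1.30, -1.78, -0.53 and -1.39 at 162 µg of NRCWE-030. The difference was 0.69 ± 0.30 (adjusted p = 0.63), and 1 treated lung lay within the vehicle range. Ddit4 was the least steady on day 1 at 18 µg of NRCWE-025, where it read -0.37, -0.50, -2.98, -1.14 and -2.02. These 5 lungs spanned more than the 14 group means, which ran from -2.21 to -1.24.

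Angptl4 had the largest fitted changes at the gene level. In vehicle lungs of day 1 it read -0.80, 0.36, 1.44, -0.88 and 0.48. After NRCWE-030 it read 0.29, 0.59, -0.71, -0.37 and -0.62 at 18 µg, 1.97, 2.29, 0.44, 1.77 and 0.91 at 54 µg, and 2.61, 2.15, 0.94, 0.98 and 0.66 at 162 µg. The upper doses lay high and the lowest dose did not, and all of them overlapped vehicle. The changes were 1.36 ± 0.47 at 54 µg (adjusted p = 0.33) and 1.35 ± 0.47 at 162 µg (adjusted p = 0.17), about 2.56-fold (95% interval 1.30 to 5.05) and 2.55-fold (1.30 to 5.02). The F-test over doses had an adjusted p of 0.11. NRCWE-025 gave 0.08, -0.33, 0.34, 0.69 and 0.26 at 54 µg, and the difference between materials at that dose was 1.27 ± 0.56 (adjusted p = 0.79).

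Within slides, the 3 lungs at 54 µg and the 2 at 162 µg of NRCWE-030 that shared a slide with a vehicle lung were all higher in Angptl4, by 0.43 to 3.17 and 0.47 to 3.49. On day 28 the mean was 1.03 ± 1.72 in vehicle and 0.75 ± 0.52 at 162 µg, the reverse order. The change at 162 µg was 1.63 ± 0.80 larger on day 1 than on day 28 (adjusted p = 0.63). Within groups, Angptl4 correlated at r = 0.44 with the mean of 5 neutrophil markers and at r = 0.04 with that of 6 fat markers, over 69 arrays. On day 1 the mean log2 ratio of the neutrophil markers was 2.59 to 3.14 in vehicle lungs and 2.99 to 3.55 after 162 µg of NRCWE-030. Of the 5 neutrophil markers, 1 was called higher at that dose, Csf3r, in a contrast that called 1.69% of all genes. After 54 µg of NRCWE-030 that day, the neutrophil mean averaged 3.02 against 2.94 in vehicle, and Angptl4 averaged 1.48 against 0.12. After 54 µg of NRCWE-025 that day, the neutrophil mean averaged 3.26 and Angptl4 0.21. Angptl4 was also higher on arrays with more probes above background (r = 0.42 within groups). The part of neutrophils and of array signal in the Angptl4 values was not tested.

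Pdk4 was lower than vehicle in 11 of the 12 dose contrasts, all of which share the vehicle lungs of their day, and none was called. On day 1 it read 0.74, 1.89, 0.99, 0.41 and 0.30 in vehicle and 0.45, 0.13, 0.90, -0.13 and 0.09 at 162 µg of NRCWE-025, a difference of -0.58 ± 0.25 (adjusted p = 0.35). On day 28 it read 1.68, 1.62, 1.66, 1.06 and 0.39 in vehicle and 1.14, 0.87, 0.30, 0.77 and 0.38 at 18 µg of NRCWE-030, a difference of -0.59 ± 0.24 (adjusted p = 0.43). In both cases the ranges of vehicle and treated lungs overlapped.

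Pdk4 is abundant in heart and muscle, and it followed the markers of other tissues. Within groups it correlated with the mean of 7 heart muscle markers (r = 0.47), 5 skeletal muscle markers (r = 0.45) and 6 fat markers (r = 0.39). The skeletal muscle and fat means rest largely on markers that were near background on part of the arrays. The heart muscle mean ran from 0.79 to 4.53 in vehicle lungs of day 1 and from 0.50 to 0.91 at 162 µg of NRCWE-025, and from 1.37 to 3.12 in vehicle lungs of day 28 and 0.69 to 2.00 at 18 µg of NRCWE-030. The fat mean ran from 1.90 to 4.74 in vehicle lungs of day 1 against 0.65 to 2.69 at 162 µg of NRCWE-025, and from 1.71 to 5.19 in vehicle lungs of day 28 against 1.37 to 2.43 at 18 µg of NRCWE-030. No marker of either list was called in these contrasts. Both groups with the lower Pdk4 values averaged lower in heart and fat markers than vehicle, as did all other treated groups of day 1. At 54 µg of NRCWE-030 on day 1 the fat mean averaged 1.43 against 2.78 in vehicle, while Pdk4 averaged 0.89 against 0.87. The part of other tissue in these values was not tested.

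Lcn12 lay between -0.32 and 0.19 in all 69 lungs. Its group means ran from -0.07 to 0.04, its dose contrasts from -0.06 to 0.11, and no unadjusted p was under 0.05 for any dose. As the probe was above background on 10 arrays, these values bound a faint signal and are no reading of its level.

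Although few comparisons passed the test, many pairs of these genes were correlated from mouse to mouse. For 8 genes (Lcn12 left out) and their brightest probes, 28 pairs were correlated over 69 arrays after each group mean was taken away, with p from 100000 permutations of arrays within groups. Of the 28 correlations, 27 were positive, 19 had an adjusted p under 0.05, and the median r was 0.39. Over all pairs of the 10933 genes whose brightest probe was well above background on every array, 50.6% were positive and the median r was 0.005. An r of 0.28, the smallest among the 19, was reached by 20.2% of those pairs. The permutations moved arrays across slides, so the p-values leave slides out. With slide means taken away too, the 28 correlations ran from 0.08 to 0.81 with a median of 0.42, against a median of -0.001 over all pairs. The tightest pair was Tsc22d3 and Errfi1, with r = 0.80 and rho = 0.83. Their permutation p of 1e-05 was the smallest the resampling can give (adjusted p 5.6e-05 for r and 9.3e-05 for rho). Leaving out the 2 arrays farthest from the median gave r = 0.76, and taking away slide means as well gave r = 0.81. Sgk1 and Ddit4 followed with r = 0.68 (rho = 0.69, same permutation p; 0.66 without the 2 farthest arrays, 0.65 within slides), Klf9 and Errfi1 with r = 0.66 (rho = 0.62) and Fkbp5 and Errfi1 with r = 0.62 (rho = 0.55). Errfi1 was thus tied to 5 of the 7 others at r above 0.55.

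Among the fasting genes, Angptl4 and Pdk4 correlated at r = 0.50 (rho = 0.53, permutation p 0.00015 and 3e-05), with 0.45 without the 2 farthest arrays and 0.51 within slides. The r was -0.01 between Angptl4 and Sgk1 and 0.00 between Pdk4 and Klf9. Other pairs passed an adjusted p of 0.05: Pdk4 correlated with Fkbp5 (r = 0.45), Tsc22d3 (0.33) and Sgk1 (0.31), and Angptl4 with Fkbp5 (0.39) and Tsc22d3 (0.29). Whether the fasting pair differs from these was not tested. All arrays used 1 reference RNA and shared slides, and RNA quality and array signal are common to both genes of a pair. Markers of lymphocytes ran the other way within groups: the mean of 4 B cell markers correlated at r = -0.51 with Errfi1, -0.44 with Tsc22d3 and -0.39 with Klf9, and that of 5 T cell markers at -0.44, -0.28 and -0.28. With all 8 genes both means correlated negatively, and their part in these values was not tested.

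**Figure D4:**
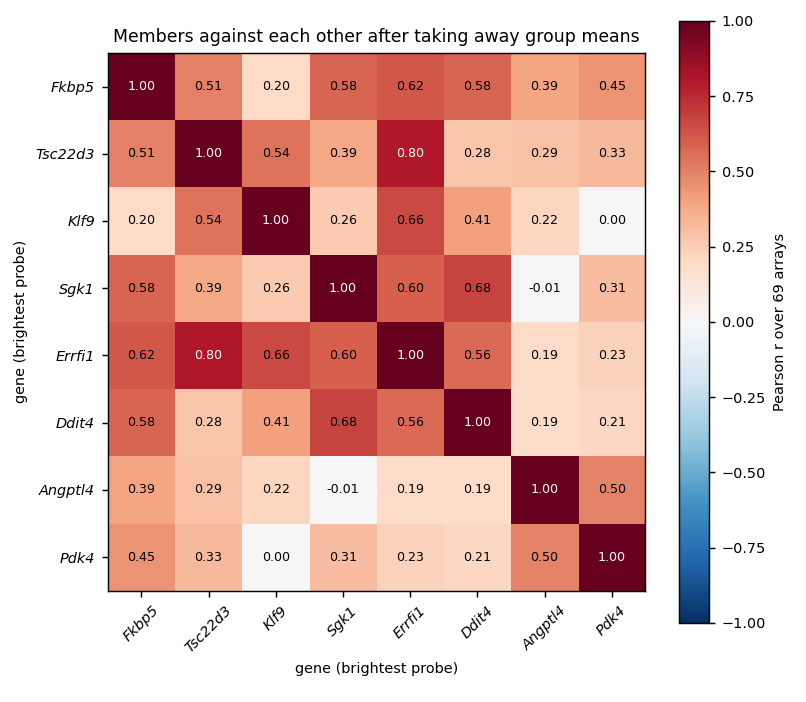
Pearson r within groups between 8 genes (brightest probe of each, 69 arrays), with the value written in each cell. Tsc22d3 and Errfi1 (0.80) are the tightest pair, and the cells of Angptl4 with Sgk1 (-0.01) and of Pdk4 with Klf9 (0.00) are near 0.

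The slide that held vehicle replicate 1 and replicate 1 of each NRCWE-025 dose on day 1 lay high for part of these genes. The mean deviation of its 4 lungs from their group means was 0.93 for Fkbp5, 0.88 for Ddit4, 0.82 for Sgk1 and 0.45 for Errfi1. It was 0.12 for Tsc22d3 and -0.08 for Klf9. All 4 lungs lay above their group means for Ddit4 and Sgk1, and 3 of 4 did for Fkbp5 and Errfi1. Replicate 1 thus had the highest Sgk1 value of vehicle and of NRCWE-025 at all 3 doses. Other slides lay as far from their group means: the 3 lungs of 1 slide averaged -1.06 for Ddit4, the 4 lungs of another -1.11 for Angptl4, and the 4 of another -0.67 for Fkbp5. The lungs and the slide they share cannot be told apart here. Without these 4 lungs the Fkbp5 probe change in the 162 µg NRCWE-030 group of day 1 was 1.36 (adjusted p = 0.075), and the call was lost.

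**Figure D5:**
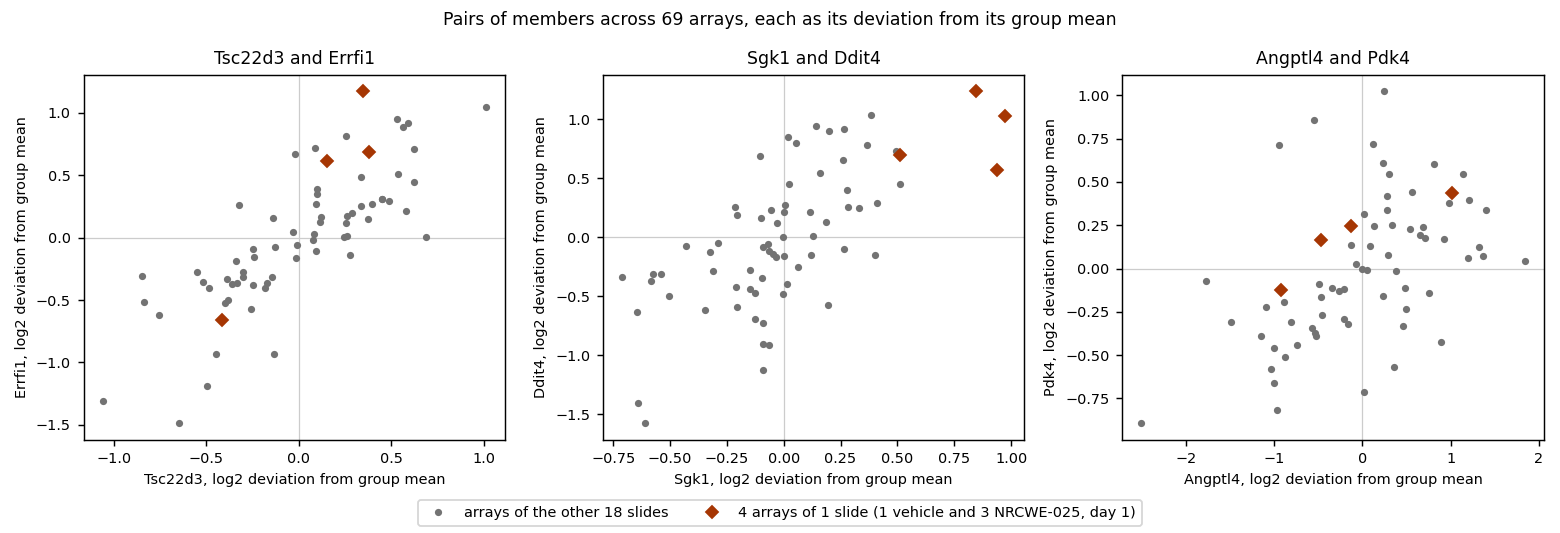
Deviation from the group mean (log2 scale, both axes) of Errfi1 against Tsc22d3, Ddit4 against Sgk1, and Pdk4 against Angptl4, 1 point per array. The 4 arrays of the day 1 slide with vehicle and NRCWE-025 lungs are marked, and they lie high for Sgk1 and Ddit4.

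Genes outside the list that tracked each gene most closely were found over 69 arrays with group means removed. For Errfi1 these were Dusp1, a phosphatase that ends MAP kinase signalling and is itself induced by glucocorticoids (r = 0.85, raw r = 0.78), and Per1 (r = 0.75, raw 0.71). For Tsc22d3 they were Arl4a (r = 0.77) and Per1 (r = 0.76, raw 0.84). Sgk1 was nearest to Dusp1 and Arrdc3 (both r = 0.71), Klf9 to Pim3 (r = 0.74) and Arl4a (r = 0.71), and Ddit4 to Tcim (r = 0.70) and Klf2 (r = 0.66). Angptl4 was nearest to Acot1, a PPAR target that splits fatty acyl-CoA (r = 0.68), and Klf11 (r = 0.67), and Pdk4 to Tbx20, a heart transcription factor (r = 0.58), and Lipe, the hormone-sensitive lipase of fat (r = 0.56). Lcn12 was nearest to Tipin (r = 0.62) and Gnb1l (r = 0.57), values taken near background. The gene-level Fkbp5 value was nearest to Hoxa10 (r = 0.79) and Dlx1 (r = 0.78). Its bright probe, looked at after its values were seen, was nearest to Cebpd (r = 0.72), a glucocorticoid-induced factor, and Arl4d (r = 0.72).

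Of 5 clock genes compared, Per1 had the highest within-group r with each of the 8 genes. Its r was 0.76 with Tsc22d3, 0.75 with Errfi1, 0.62 with Fkbp5, 0.55 with Klf9, 0.51 with Sgk1, 0.41 with Ddit4, 0.32 with Pdk4 and 0.25 with Angptl4. Per2 reached 0.53 with Tsc22d3 and 0.30 with Errfi1. Dbp, whose group means differed far more, had within-group r between -0.18 and -0.02 with the 8 genes. Taken over raw values, with group differences left in, Dbp correlated with Fkbp5 (r = 0.49) and Tsc22d3 (r = 0.46). Dbp thus ran with Fkbp5 and Tsc22d3 when group differences were left in, and not within groups.

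Related genes were looked at in 12 lists with 160 measured genes of 167. The lists were chosen with earlier results of these data known, so the shares called describe the lists and do not test them. The median log2 change over all genes lay between -0.01 and 0.01 in the 12 dose contrasts. Among 19 other glucocorticoid-induced genes, 3 were called at 162 µg of NRCWE-030 on day 1, all higher: Lcn2, which is also an acute phase gene (3.07 ± 0.34, adjusted p = 0.00011), the decoy receptor Il1r2 (1.36 ± 0.19, adjusted p = 0.0011) and Cebpb (0.55 ± 0.14, adjusted p = 0.048). The list median was 0.37 against 0.0045 for all genes, of which 1.69% were called in this contrast (228 higher and 88 lower). Lcn2 was also called at 54 µg (2.43 ± 0.34), and Dusp1 by the F-test over doses (adjusted p = 0.044). No other dose contrast called a gene of this list. Over the 12 dose contrasts 1.75% of its tests were called, against 0.197% for all genes. The part of inflammation in these calls was not tested.

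Genes that set hormone access and receptor folding were called in 2 of 144 dose tests (1.39%, against 0.197% for all genes). Of the 12 genes, none was called on day 1 by limma. At 162 µg of NRCWE-030 on day 1, 4 had an unadjusted p under 0.05, as did 2402 of all 18656 genes. On day 28, 2 fell: the chaperone Hsp90ab1 by 0.50 at 18 µg of NRCWE-030 and Fkbp4, a co-chaperone that opposes Fkbp5, by 0.55 at 162 µg. Of 28 fasting, PPAR and FOXO target genes, 1 fell at 162 µg of NRCWE-030 on day 1, Cidec (-1.36 ± 0.31, adjusted p = 0.031), which coats fat droplets and is also a fat cell marker. The mean of the 6 fat markers was 1.90 to 4.74 in vehicle lungs and 0.97 to 3.11 in that group, and its part in the Cidec value was not tested. Over the dose contrasts, 0.298% of the tests of the fasting, PPAR and FOXO target genes were called.

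Among 18 clock genes, 9 calls were higher and 3 lower over the 12 dose contrasts, all after NRCWE-030. That is 5.56% of their tests, where 0.197% of those of all genes were called. The list was chosen with earlier results known, and contrasts of a day share their vehicle lungs, so the difference in shares is no test. Dbp rose by 1.79 ± 0.39 on day 1 (adjusted p = 0.021) and by 2.27 ± 0.34 on day 28 (adjusted p = 0.0041) at 162 µg, and Arntl fell by 1.51 and by 1.37. Acute phase and inflammation genes were called 11 times (7.64% of their tests), all higher, on day 1 at 54 and 162 µg of NRCWE-030. Saa3 was highest at 7.31 ± 0.82. Among 12 FK506-binding proteins and lipocalins, Fkbp10 rose (0.71 ± 0.14, adjusted p = 0.013) in the 162 µg group of day 1. This call made up 0.694% of the tests of that list. No dose contrast called a gene among the pyruvate dehydrogenase kinases and phosphatases, the lipoprotein lipase and angiopoietin-like genes, mTORC1 genes, ERBB receptors and ligands, SGK targets, or the TSC22, KLF and BTB-zinc finger relatives.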

How the data were processed

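RNA of 69 mouse lungs was hybridised on 2-colour Agilent arrays by the authors (200 ng RNA, RNA integrity above 7, lung in Cy5, reference in Cy3, no dye swap). The deposited scanner files hold spot intensities as read by Feature Extraction 11.0.1.1, its log10 ratios, and flags of 0 or 1 for background and saturation, per the file headers. The deposited value table holds log2 ratios made by the authors (column medians -0.05 to 0.00). Set against log2 ratios made here without background correction, the slope was 0.99 at the median over arrays. Its exact normalization is not given in the sources used here.

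From the intensities, background was corrected with limma 3.58.1 (R 4.3.3) by normexp with offset 50, with marked local backgrounds replaced, followed by loess within arrays. Spots of a probe were combined by the median, and the gene value was the median of its probes. Accessions of 27479 of 41174 probes matched a RefSeq symbol (18749 symbols). Per material and day, 4 groups were fitted with lmFit and eBayes, and differences between materials and days over all 14 groups. P-values were adjusted by Benjamini-Hochberg over 18656 genes or 40831 probes, with calls at an adjusted p under 0.05. The probe fits were added after the gene values were seen. The number of arrays limits the precision. No spot of these genes was saturated.

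The genes and lists were chosen with earlier results of these data known. Named beyond the 10 genes were, per list, called genes (at most 6), and for each gene the 2 genes with the highest within-group r. Alternatives covered background, value source, scaling, probe choice, dim probes, slide, scan day, moderation and single arrays. The fits were tested on simulated data with independent noise in each array, so that test does not cover lungs that share a slide.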

Additional observations from a re-analysis of the deposited data

Results flagged for a closer look

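In 140 groups of 4 or 5 lungs (9 genes and the bright Fkbp5 probe in 14 groups), 8 held a lung that lay far from the others by Dixon's criterion, which chance alone meets in about 1 group of 20. Tsc22d3 was 1.43 in NRCWE-030 162 µg day 28 replicate 5, whose nearest neighbour was 2.56. Without this lung the F-tests of Tsc22d3 and Klf9 between materials on day 28 were called, and that of Tsc22d3 was also called without any of 3 other arrays. The bright Fkbp5 probe A_52_P481493 was 1.77 in vehicle day 1 replicate 3, with the next vehicle lung at 0.31. Fkbp5 at the gene level was -0.95 in NRCWE-030 54 µg day 1 replicate 3. Klf9 was 1.02 in NRCWE-025 54 µg day 1 replicate 2 and 1.80 in NRCWE-025 54 µg day 28 replicate 4. Errfi1 was 1.09 in that same day 28 lung. Ddit4 was -1.16 in NRCWE-030 54 µg day 28 replicate 1, and Pdk4 was 1.41 in NRCWE-030 18 µg day 1 replicate 3.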

How the results depend on the processing

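No paired analysis was possible because the labels give no number that pairs lungs across groups, so slides, which hold lungs of several groups, were fitted as blocks. Of 481 counts of called genes or probes under the alternatives, 471 did not move, and of 406 single log2 changes, 401 kept their direction and side of the threshold. The Fkbp5 probe call at 162 µg of NRCWE-030 on day 1 (1 probe) went to 0 with the scanner log ratio (1.73, adjusted p = 0.085), without moderation (adjusted p = 0.088), in 1 fit over all groups (adjusted p = 0.061) and, chosen after seeing the data, without 1 slide of day 1; over 12 alternatives other than leaving out single arrays its adjusted p ran from 0.016 to 0.088, and over the 20 fits that left out 1 array from 0.0020 to 0.096. With slide as a random or a fixed block, the F-test of that probe was called (1 probe), and with the fixed block the 54 µg contrast too (1 probe). With the brightest probe, 1 gene (Fkbp5) was called at 162 µg of NRCWE-030 on day 1 and 1 (Tsc22d3) between materials on day 28. With the scanner log ratio, 1 gene (Fkbp5) was called between materials on day 1. The difference of Fkbp5 between materials at 18 µg on day 1 turned from 0.34 to -0.11 with the brightest probe. Leaving out 1 array at a time, the called probes ranged from 0 to 1 for the F-test and for the 54 and 162 µg contrasts of NRCWE-030 on day 1, and the called genes from 0 to 2 between materials on day 28. The causes were not tested. Aquantile scaling leaves ratios as they are and changed nothing. Lcn12 and the dim Fkbp5 probes are limited by signal over background.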
